A study of Mus musculus with 12 samples.

Results

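A set of 7 genes at about 100 to 115 Mb of mouse chromosome 11 was followed, out of 55450 in the count table. They are *C130046K22Rik*, *Abca5*, *Arl4d*, *2610035D17Rik*, *Abca8a*, *Abca8b* and *Abca9*. The first 4 were selected on their measured counts, which differed between the mouse lines with PBS and with cockroach extract (CRE), and the other 3 because they are relatives of *Abca5* that lie beside it. The genotype differences of these 7 genes are therefore given as a description with no p-value, and where the fit over all genes calls one of them, the choice had fixed it and it supports nothing, while their responses to CRE were not used in the choice and were tested. A filter on low counts left 6 of the 7 among 20612 genes tested, and *Abca8a* was not tested, while *C130046K22Rik* passed it through the line in which it is present. The cells were type II alveolar epithelial (AT2) cells of 6 to 8 week old mice on a C57BL/6 background, isolated by removing cells that carry CD16/32, CD45, Ter119 or Sca-1 and by panning on IgG, and then cultured on collagen I. One line, AhRfl/fl, carries a floxed AhR gene, and the other, Sftpc-Cre;AhRfl/fl, carries the same floxed gene and Cre recombinase driven by promoter and enhancer elements of *Sftpc*, so that AhR can be deleted in AT2 cells. They are called the floxed line and the Cre line here. Since the floxed line is not described as carrying Cre, an effect of Cre itself and an effect of AhR loss cannot be told apart. The paper obtained its *Sftpc*-Cre mice and its floxed mice from different sources and does not say whether the controls were littermates. Any other inherited difference between the lines therefore cannot be told apart from these effects either. Cells of each line received PBS or CRE at 50 µg/ml for 24 h, and each of the 4 groups has 3 stranded mRNA libraries. The labels do not say whether the 3 libraries of a group came from separate mice, so p-values measure only the spread between these libraries.

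AhR is a ligand-activated transcription factor that binds, with its partner ARNT, to DNA with the core GCGTG, and *Cyp1a1* and *Cyp1b1* are among its best known targets. AT2 cells make the surfactant of the lung, and *Abca3*, a lipid transporter of the same subfamily as *Abca5*, loads surfactant phospholipid into their lamellar bodies. *Abca5* is a membrane transporter found in lysosomes and late endosomes, *Abca8a*, *Abca8b* and *Abca9* belong to the same cluster of transporter genes, and *Arl4d* is a small GTPase of the ARF-like family that acts at the plasma membrane. *C130046K22Rik* and *2610035D17Rik* are annotated as noncoding RNAs.

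The bases in front of the 4 genes that differed are shown because they are where an AhR core motif would be looked for first. The sequences are from RefSeq (GRCm38.p6), which matched all 7 genes, and run 5′ to 3′ on the strand of the gene up to the base before its start. They cover chr11:110337717-110337966 (minus strand) for *Abca5*, chr11:101665291-101665540 (plus strand) for *Arl4d* and chr11:113201839-113202088 (minus strand) for *2610035D17Rik*. For *C130046K22Rik* (plus strand) they cover chr11:103697474-103697629, the part before the first exon of *Gosr2* on the other strand. Capitals mark the core GCGTG or its reverse complement CACGC.
Abca5: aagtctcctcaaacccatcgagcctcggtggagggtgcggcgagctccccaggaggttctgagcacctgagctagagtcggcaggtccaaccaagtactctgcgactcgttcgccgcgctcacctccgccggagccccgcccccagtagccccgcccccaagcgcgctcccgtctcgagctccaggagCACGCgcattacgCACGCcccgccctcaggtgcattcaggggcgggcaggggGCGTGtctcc
Arl4d: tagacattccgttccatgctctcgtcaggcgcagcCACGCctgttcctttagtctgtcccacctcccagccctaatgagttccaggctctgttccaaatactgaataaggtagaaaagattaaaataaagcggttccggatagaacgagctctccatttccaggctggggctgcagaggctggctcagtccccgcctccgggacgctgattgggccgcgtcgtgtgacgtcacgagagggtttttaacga
2610035D17Rik: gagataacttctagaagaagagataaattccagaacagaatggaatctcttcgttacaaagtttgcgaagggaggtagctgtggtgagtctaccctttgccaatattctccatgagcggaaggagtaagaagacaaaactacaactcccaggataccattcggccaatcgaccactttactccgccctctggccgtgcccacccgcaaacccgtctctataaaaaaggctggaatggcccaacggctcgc
C130046K22Rik: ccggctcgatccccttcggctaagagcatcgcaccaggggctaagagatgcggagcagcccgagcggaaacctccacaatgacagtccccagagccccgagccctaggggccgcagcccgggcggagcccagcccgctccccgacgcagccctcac
The 250 bases before the start of *Abca5* held 3 cores and those of *Arl4d* held 1. No core was found in the 250 bases of the other 5 genes, and the longer form TNGCGTG, which contains the core, was in none of the 7. Both strands were searched. Of 32851 RefSeq promoters of the same length, 28.2% held at least 1 core, 2.77% held 3 or more, and 4.1% held the longer form. A match of letters is a description and not a binding site.

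Total counts lay between 68878065 and 80935797 per library, and at this depth 0 counts are compatible with as many as 3, or 0.0365 to 0.0446 CPM, by counting error only. CPM, the count of a gene scaled to the size of its library, was computed after TMM normalisation, with factors between 0.969 and 1.03. The targeted gene *Ahr* (chromosome 12) was at 42.9, 43.8 and 45.1 CPM in the floxed line and at 49.6, 40.2 and 45.7 CPM in the Cre line with PBS. Its counts cover the whole gene and do not show whether the floxed exon was deleted. *Cyp1b1* was at 384 ± 34.6 CPM in the floxed line and 44.7 ± 13.7 CPM in the Cre line with PBS (SD, n = 3), a log2 difference of -3.10 (SE 0.27, edgeR adjusted p = 0.000879 after Benjamini-Hochberg). Of 8 AT2 markers all were detected, led by *Sftpc* and *Sftpa1*. Their summed level lay between 4259 and 8753 CPM, lowest in replicate 1 of the Cre line under both treatments. Markers of other cell types were detected as well. The summed level of 4 club and ciliated cell markers, led by *Scgb1a1* and *Foxj1*, lay between 4013 and 8199 CPM. Within each treatment it was highest in replicate 1 of the Cre line (8199 CPM with PBS and 6793 CPM with CRE). In bulk RNA, fewer cells of a type and less RNA per cell cannot be told apart.

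*C130046K22Rik* (ENSMUSG00000085154, chromosome 11, 103697724 to 103722832 of GRCm38, plus strand, 780 exon bases) was present in the floxed line and had no count in the Cre line. With PBS the floxed libraries held 139, 63 and 130 counts, and with CRE they held 127, 121 and 108. The 6 libraries of the Cre line held 0 counts each, so the lines do not overlap. The floxed line was at 1.49 ± 0.487 CPM with PBS and 1.55 ± 0.0901 CPM with CRE (SD, n = 3). Set against the floor of 3 counts per library, the gene was at least 38.7-fold lower in the Cre line with PBS and at least 39.3-fold lower with CRE. This was the only gene of the 55450 with 0 counts in all 6 libraries of one line and at least 10 in each of the other line.

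**Figure D1:**
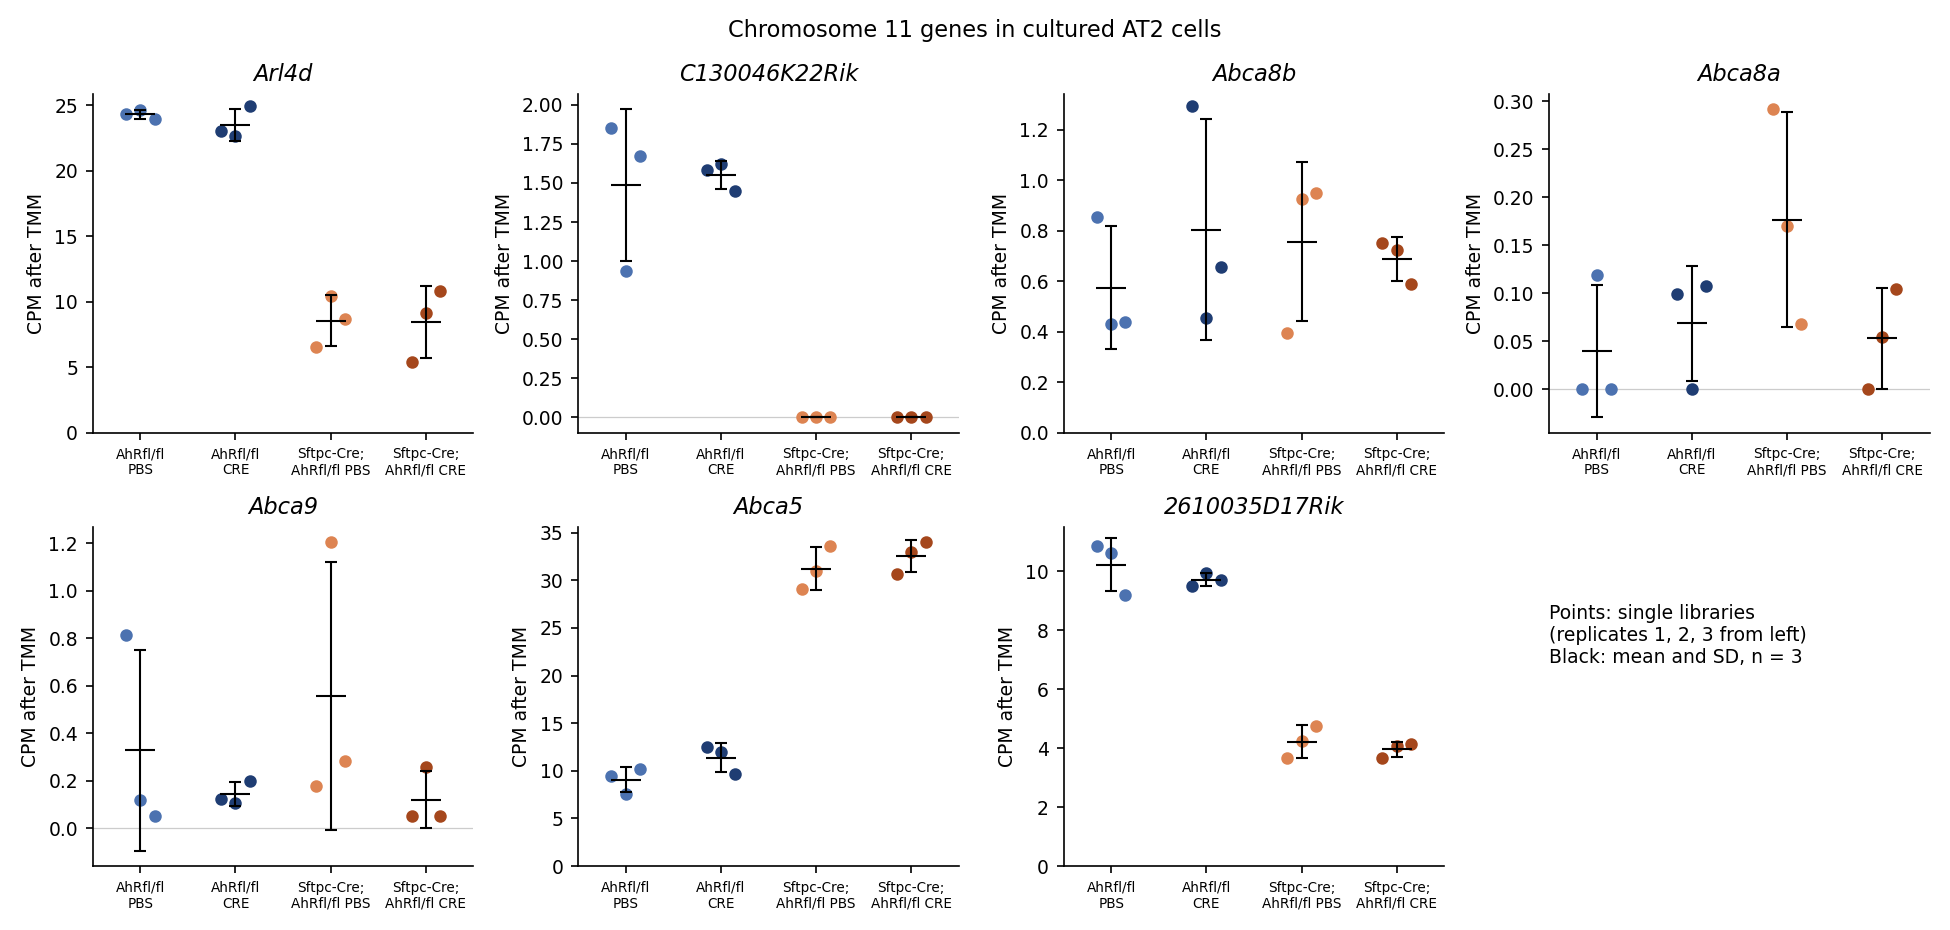
CPM after TMM (y axes, linear) of the 7 genes in each library of the 4 groups, with the mean and SD of 3 libraries in black. C130046K22Rik, Arl4d and 2610035D17Rik are lower in all 6 libraries of the Cre line, Abca5 is higher in all 6 (29.1 to 34.0 against 7.61 to 12.5 CPM), and the groups of Abca8a, Abca8b and Abca9 overlap.

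With the minimum relaxed to 1 count, 3 genes of the whole table were at 0 throughout the Cre line and present in every floxed library. They were *C130046K22Rik*, its neighbour *Gm11642* and *Gm5455* on chromosome 13. *Gm11642* is a noncoding gene (103723950 to 103724532, plus strand) that starts 1118 bases beyond the end of *C130046K22Rik* on the same strand. It held 33, 6 and 16 counts with PBS and 11, 12 and 14 with CRE in the floxed line, and 0 in the 6 libraries of the Cre line. It was at least 6.38-fold lower with PBS and at least 4.10-fold lower with CRE against the same floor, and did not pass the quasi-likelihood test (edgeR adjusted p = 0.201 and 0.338).

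The tested genes around this pair were present in both lines. *Gosr2*, a SNARE protein of the Golgi, overlaps *C130046K22Rik* by 175 bases on the opposite strand and had 7362 to 8325 counts in the floxed line and 7661 to 8974 in the Cre line. Its log2 difference between lines was -0.02 (SE 0.07, edgeR adjusted p = 0.993) with PBS and 0.07 (edgeR adjusted p = 1.0) with CRE. The libraries are stranded, but how strand was used in counting is not given in the sources used here, so reads of the shared 175 bases cannot be assigned with certainty. *Nsf*, an ATPase of vesicle fusion, was at -0.21 (SE 0.07) with PBS and -0.31 (SE 0.07) with CRE on the log2 scale, and did not pass (edgeR adjusted p = 0.482 and 0.277). Of 13 genes annotated within 250 kb, 5 were tested, and the 8 untested ones had at most 19 counts in any library.

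**Figure D2:**
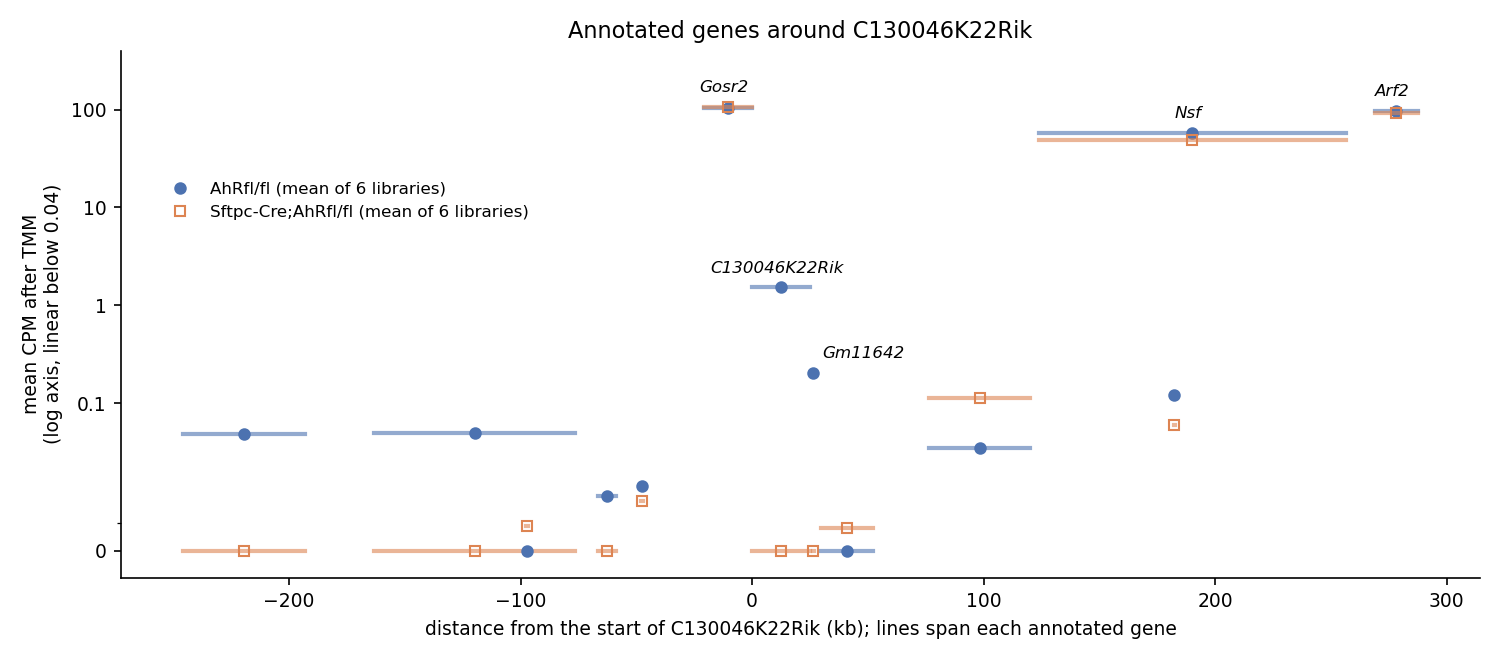
Mean CPM of 6 libraries per line (y axis, logarithmic above 0.04 and linear below) for the genes annotated around C130046K22Rik, against the distance from its start in kb, with lines spanning each gene. C130046K22Rik and Gm11642 sit at 0 in the Cre line, while Gosr2, Nsf and Arf2 stand far above them in both lines.

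*Abca5* (ENSMUSG00000018800, 110269369 to 110337716, minus strand) was higher in the Cre line. With PBS it had 707, 512 and 792 counts in the floxed line, or 9.43, 7.61 and 10.2 CPM. In the Cre line it had 2293, 2543 and 2475 counts, or 29.1, 30.9 and 33.6 CPM. The lowest Cre library thus lay above the highest floxed one. The means were 9.08 ± 1.33 and 31.2 ± 2.25 CPM (SD, n = 3), a log2 difference of 1.78 (SE 0.14), or 3.44-fold. With CRE the floxed libraries were at 12.5, 12.0 and 9.62 CPM and the Cre libraries at 30.7, 32.9 and 34.0 CPM. The means were 11.4 ± 1.53 and 32.6 ± 1.70 CPM, a log2 difference of 1.52 (SE 0.14), or 2.87-fold.

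The neighbours of *Abca5* in the transporter cluster were low and did not separate the lines. The nearest, *Abca6*, lies 17593 bases away and had 0 to 34 counts. Its log2 difference between lines was 0.93 (SE 1.37) with PBS and 1.43 (SE 1.33) with CRE, and its libraries overlapped under both treatments. *Abca8b* (ENSMUSG00000020620, 109932190 to 109995845, minus strand) had 64, 29 and 34 counts with PBS in the floxed line and 31, 76 and 70 in the Cre line. With CRE it had 104, 34 and 49 counts in the floxed line and 59, 53 and 45 in the Cre line. Its log2 difference between lines was 0.39 (SE 0.48) with PBS and -0.22 (SE 0.48) with CRE, each smaller than its standard error. *Abca8a* (ENSMUSG00000041828, 110025634 to 110095978, minus strand) had 0 to 23 counts in the 12 libraries and was at 0 in 4 of them. *Abca8a* and *Abca8b* share 183 stretches of 31 bases in their transcripts, 3.11% and 3.23% of all such stretches being shared with any other gene, so a few reads could be split between them.

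*Abca9* (ENSMUSG00000041797, 110100749 to 110168196, minus strand) varied more between libraries than between lines. With PBS it had 61, 8 and 4 counts in the floxed line and 14, 99 and 21 in the Cre line. With CRE it had 10, 8 and 15 counts in the floxed line and 4, 19 and 4 in the Cre line. A single library held most of the counts with PBS in each line. The log2 difference between lines was 0.76 (SE 1.06) with PBS and -0.26 (SE 1.12) with CRE. Leaving out 1 library at a time moved it between -0.50 (without PBS replicate 2 of the Cre line) and 2.69 (without PBS replicate 1 of the floxed line), so its sign rests on single libraries. The summed level of 10 fibroblast markers, led by *Col1a1* and *Dcn*, was highest within each line at the same replicate numbers. It was at 201 CPM with PBS and 182 CPM with CRE in floxed replicate 1. In Cre replicate 2 it was at 274 and 234 CPM, against 76.3 to 160 CPM in the other libraries. All 10 of these markers were tested and none was called between lines, and their part in the values of *Abca9* was not tested.

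Of 16 genes of the Abca subfamily, 12 were tested and *Abca15* and *Abca16* were at 0 in all libraries. *Abca5* was picked on its difference between lines, and of the other 11 tested genes none was called by edgeR between lines with PBS or with CRE. The median log2 difference of the 12 was 0.03 with PBS and -0.02 with CRE, against -0.001 and -0.0034 for all genes tested. *Abca3*, the surfactant lipid transporter, was at 157 CPM in the floxed line and 156 CPM in the Cre line with PBS, a log2 difference of -0.01 (SE 0.10). *Abca7*, a transporter of phospholipid, had a log2 difference of -0.10 (SE 0.08) with PBS and -0.27 (SE 0.08) with CRE, and did not pass (edgeR adjusted p = 0.836 and 0.597).

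*Arl4d* (ENSMUSG00000034936, 101665541 to 101667832, plus strand) was lower in the Cre line and varied there. With PBS it was at 24.3, 24.6 and 23.9 CPM in the floxed line and at 6.52, 10.4 and 8.68 CPM in the Cre line. With CRE it was at 23.0, 22.6 and 24.9 CPM in the floxed line and at 5.40, 9.15 and 10.8 CPM in the Cre line. The floxed libraries lay close together and the Cre libraries spread over a wider range without reaching them, with replicate 1 lowest under both treatments. The means with PBS were 24.3 ± 0.352 and 8.53 ± 1.94 CPM (SD, n = 3), a log2 difference of -1.51 (SE 0.23), or 2.85-fold lower. With CRE they were 23.5 ± 1.22 and 8.45 ± 2.77 CPM, a log2 difference of -1.48 (SE 0.23), or 2.78-fold lower. Replicate 1 of the Cre line also had the lowest AT2 marker sum (4259 and 4426 CPM, against 6016 to 8753 in the other Cre libraries). Within that line it had the highest club and ciliated marker sum too (8199 and 6793 CPM). With PBS, replicate 2 had more *Arl4d* than replicate 3 but a lower AT2 marker sum (6016 against 8401 CPM). With CRE both values were higher in replicate 3. The part of these cell types in the spread of *Arl4d* was not tested. The related GTPases *Arl4a* and *Arl4c* had log2 differences of -0.15 and 0.12 with PBS and 0.07 and 0.13 with CRE, and did not pass (edgeR adjusted p = 0.805 and 0.882 with PBS, 1.0 for both with CRE).

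*2610035D17Rik* (ENSMUSG00000087259, 113043895 to 113201838, minus strand), a long intergenic noncoding RNA, was lower in the Cre line. With PBS it was at 10.9, 10.6 and 9.19 CPM in the floxed line and at 3.66, 4.23 and 4.76 CPM in the Cre line. With CRE it was at 9.51, 9.95 and 9.69 CPM in the floxed line and at 3.66, 4.06 and 4.14 CPM in the Cre line. The highest Cre library, at 4.76 CPM, lay well under the lowest floxed one, at 9.19 CPM. The means with PBS were 10.2 ± 0.904 and 4.22 ± 0.554 CPM (SD, n = 3), a log2 difference of -1.28 (SE 0.15), or 2.42-fold lower. With CRE they were 9.72 ± 0.219 and 3.95 ± 0.260 CPM, a log2 difference of -1.30 (SE 0.15), or 2.46-fold lower. Of its stretches of 31 bases, 1.54% are shared with other genes. The nearest tested gene above it is *4732490B19Rik*, a noncoding gene on the same strand, 1477 bases away. Its log2 differences of 1.83 with PBS (edgeR adjusted p = 0.872) and 0.65 with CRE were not called. With each library set to at least the floor of 3 counts they were 0.81 and 0.45. The nearest tested gene below *2610035D17Rik* is *Sox9*, a transcription factor of lung and cartilage development, 256135 bases away. *Sox9* was at 2.11 ± 0.985 CPM in the floxed line and 4.31 ± 0.982 CPM in the Cre line with PBS, a log2 difference of 1.03 (SE 0.37) that did not pass (edgeR adjusted p = 0.491). With CRE the difference was 0.85 (SE 0.37, edgeR adjusted p = 0.831).

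Levels were compared between genes only per length, on the deposited FPKM scale. In floxed cells with PBS, *Arl4d* was highest at 15.7 ± 0.376 FPKM, followed by *2610035D17Rik* at 4.29 ± 0.432, *C130046K22Rik* at 1.70 ± 0.588 and *Abca5* at 0.707 ± 0.108 (SD, n = 3). *Abca8b* (0.0686 ± 0.0313), *Abca9* (0.0359 ± 0.0475) and *Abca8a* (0.00528 ± 0.00897) came last, and the neighbours among these 3 did not differ beyond their spread. In Cre cells with PBS the order was *Arl4d* at 5.62 ± 1.24, *Abca5* at 2.48 ± 0.132 and *2610035D17Rik* at 1.80 ± 0.205 FPKM, with *C130046K22Rik* without a count.

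The response to CRE was compared with PBS within each line, which the choice of genes had not used. No member was called by edgeR in the floxed line (0 of 6) or the Cre line, against 0.233% and 0.262% of all genes tested. In the Cre line *C130046K22Rik* had no count, so it could not be called there by any rule. Only the other tested members could have been called in that line. At an unadjusted p below 0.05, 1 member passed in the floxed line, which was *Abca5*, and 0 in the Cre line, against 9.36% and 6.48% of all genes. The study's rule (limma-trend, unadjusted p below 0.05 and absolute log2 fold change above 0.5) called 0 members in both lines, against 4.11% and 3.38% of all genes, and DESeq2 and the other alternatives tried called 0 as well. Treating the PBS and CRE libraries of one number as pairs within each line raised the calls over all genes from 48 to 748 in the floxed line and from 54 to 439 in the Cre line, and called 0 members. *Abca5* went from 9.08 to 11.4 CPM in the floxed line, a log2 response of 0.32 (95% interval 0.03 to 0.62, edgeR adjusted p = 0.484). In the Cre line its log2 response was 0.06 (-0.23 to 0.35, edgeR adjusted p = 1.0).

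Every interval that could be given for the other 5 members included 0, and *C130046K22Rik* has an interval in the floxed line only. For *Arl4d* the log2 response to CRE was -0.05 (95% interval -0.55 to 0.46) in the floxed line and -0.01 (-0.52 to 0.50) in the Cre line. For *2610035D17Rik* it was -0.07 (SE 0.14) and -0.09 (-0.41 to 0.23). *C130046K22Rik* had a log2 response of 0.06 (-0.80 to 0.92) in the floxed line, and no response can be given for the Cre line, where all libraries were at 0. For *Abca8b* the values were 0.48 (-0.58 to 1.55) and -0.14 (-1.20 to 0.93), and for *Abca9* they were -1.18 (-3.60 to 1.24) and -2.19 (-4.67 to 0.29), intervals that leave changes of several fold in either line undetectable at this depth. The genotype difference under CRE minus that under PBS, given without a test, was 0.03 (SE 0.33) for *Arl4d*, -0.26 (SE 0.19) for *Abca5* and -0.02 (SE 0.21) for *2610035D17Rik* on the log2 scale.

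**Figure D3:**
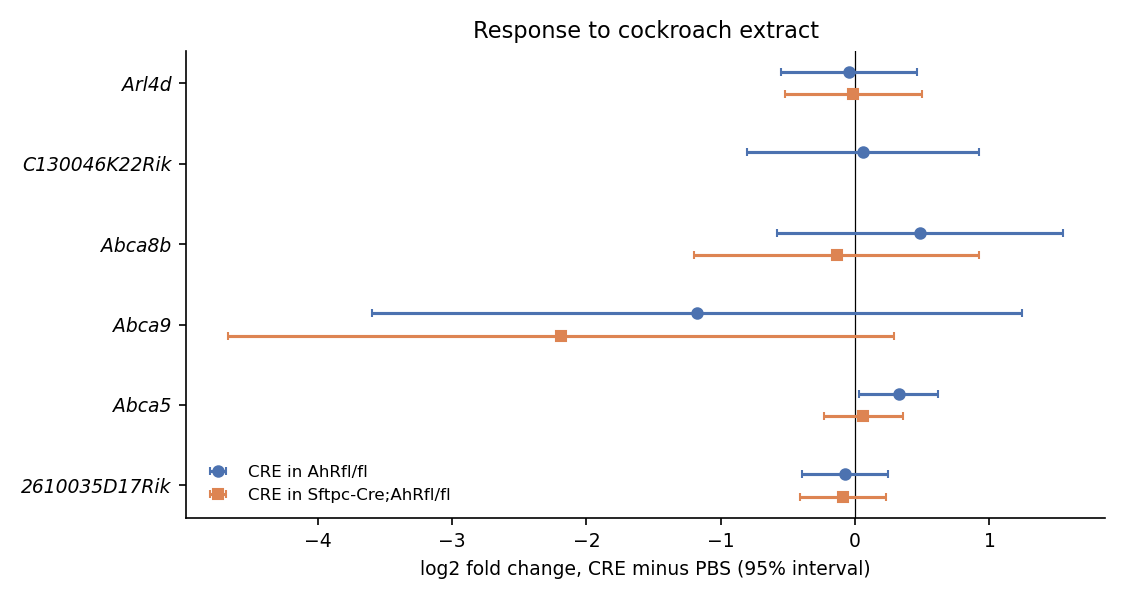
Log2 fold change of CRE against PBS (x axis, with 95% intervals from the edgeR fit) for the 6 tested genes in the floxed line (circles) and the Cre line (squares). The intervals include 0 except for Abca5 in the floxed line (0.03 to 0.62), and C130046K22Rik has no value in the Cre line.

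Between the lines, 31 of 20612 genes (0.15%) were called by edgeR with PBS and 35 (0.17%) with CRE at an adjusted p below 0.05. The 4 members picked on these differences are among them in each comparison, *Abca5* higher and the other 3 lower in the Cre line, and nothing is read from their count. Of all genes, 0.0485% were called higher and 0.102% lower with PBS, and 0.0582% and 0.112% with CRE. With the replicate number as a block, the call count over all genes with PBS was 71. The calls of the members were not the same in every fit. *Arl4d* was not called with PBS on leaving out any 1 library other than CRE replicates 1 and 3 of the Cre line, and with CRE on leaving out any 1 of 8 libraries (each of the 6 floxed ones, CRE replicate 2 and PBS replicate 3 of the Cre line). With only the 6 libraries compared in the fit, *Arl4d* and *2610035D17Rik* were not called under either treatment and *C130046K22Rik* was not called with PBS. In the whole genome 25 genes (0.121%) were called in both comparisons, on 13 chromosomes. Of these, 4 lie on chromosome 11 and are the members, and no other gene of that chromosome was called in both.

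The window of 100 to 115 Mb holds 230 tested genes, and 0 of the 224 that are not members were called by edgeR with PBS or with CRE. The smallest adjusted p among them was 0.0907 with PBS and 0.122 with CRE in edgeR's test, and their median log2 difference was -0.03 and -0.02. At an unadjusted p below 0.05, 27 window genes passed with PBS and 28 with CRE, members included, or 11.7% and 12.2% of the window against 8.37% and 5.95% of all genes tested. Of the 224 that are not members, 23 passed with PBS and 24 with CRE. Between *Arl4d* and *C130046K22Rik* lie 2.03 Mb with 54 tested genes, between *C130046K22Rik* and *Abca5* 6.55 Mb with 70, and between *Abca5* and *2610035D17Rik* 2.71 Mb with 4. None of these genes was called by edgeR in either comparison. At an unadjusted p below 0.05 in edgeR's test, 6 of the 54 passed with PBS and 6 with CRE. Of the 70, 10 and 13 passed, and of the 4, 1 and 1. The members are thus separated by genes that edgeR did not call at its adjusted threshold. DESeq2 and the study's rule called more genes of the window.

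**Figure D4:**
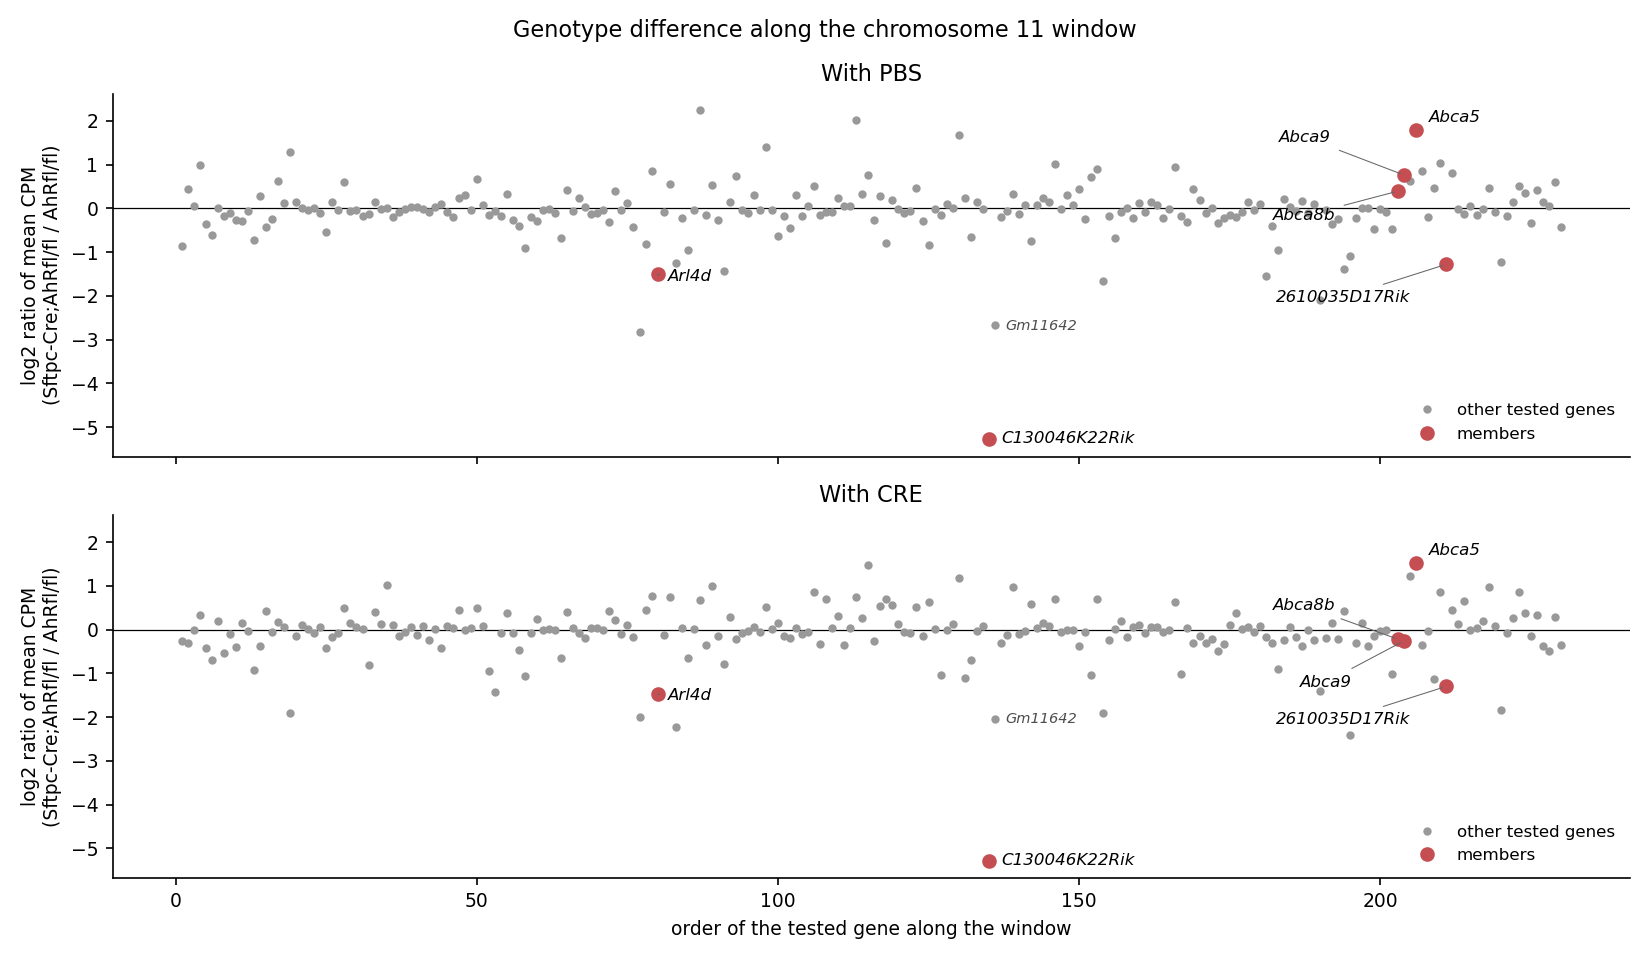
Log2 ratio of mean CPM, Cre line over floxed line (y axis), for the 230 tested genes in their order along the window (x axis), with PBS above and CRE below, each library set to at least the floor of 3 counts. The points of C130046K22Rik and Gm11642 are limits set by that floor, Abca5 stands above 1.5 in both panels, and most other genes lie near 0.

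Genes whose 6 floxed and 6 Cre libraries did not overlap in CPM, over both treatments, numbered 245 of 20612 (1.19%). PBS and CRE libraries of one number deviated together from their group means (r between 0.377 and 0.746), so the 6 libraries of a line are not independent. In the window there were 15 of 230 (6.52%), 10 lower and 5 higher in the Cre line, of which 4 are members. Without the members the window held 11 of 224 (4.91%). On the rest of chromosome 11 there were 9 of 1334 (0.675%), and no other 15 Mb tile of the chromosome exceeded 1.7%. Among the 84 tiles of 15 Mb in the genome with at least 100 tested genes the window had the highest share with the members included, and a tile of chromosome 19 came next at 5.94%, above the window without its members. The median of these tiles was 0.905%. Tiles with fewer tested genes reached shares as high or higher, among them 6 of 59 (10.2%) at 25 to 40 Mb of chromosome 12, where *Ahr* lies, 4 of 59 (6.78%) at 0 to 10 Mb of chromosome 17 and 3 of 46 (6.52%) at 55 to 70 Mb of chromosome 16, so the window is not the highest in the genome. The window was chosen with these genotype differences in view, and no test was made of these shares. By 5 Mb, the window held 8 of 144, 4 of 59 and 3 of 27 such genes, members included. *Arl4d* and *C130046K22Rik* are among the 8, and *Abca5* and *2610035D17Rik* among the 3, so the choice of members fixed part of these counts.

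**Figure D5:**
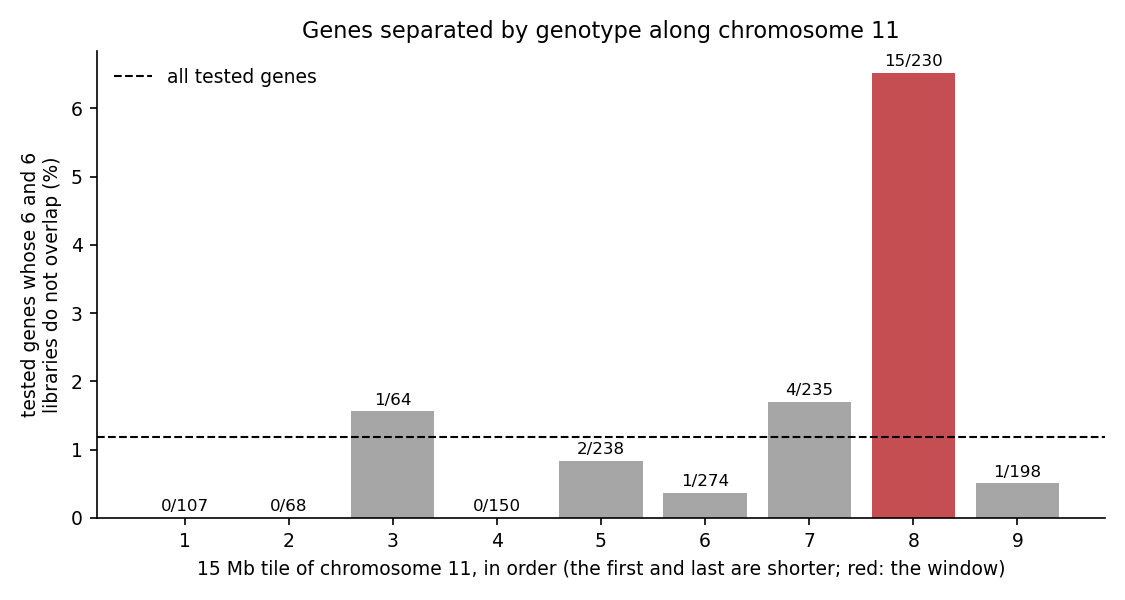
Share of tested genes whose 6 floxed and 6 Cre libraries do not overlap (y axis, percent) in each 15 Mb tile of chromosome 11 in order (x axis), with the number of such genes over the number tested above each bar and the share of all tested genes (1.19%) as a dashed line. The window, in red, has 15 of 230 genes and the other tiles have 0 to 4.

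The 11 other genes, named after their values were seen, were *Gm23849*, *Meox1*, *Gm11642*, *Nsf*, *Kcnh6*, *Dcaf7* and *Gna13*, lower in the Cre line, and *Etv4*, *Tmem101*, *1700052K11Rik* and *Sox9*, higher. None was called by edgeR. *Gm23849*, a small nuclear RNA gene, had 33 to 79 counts in the floxed line and 3 to 17 in the Cre line, with log2 differences of -2.81 (SE 0.54) with PBS and -1.99 (SE 0.51) with CRE (edgeR adjusted p = 0.104 and 0.371). It lies before *Arl4d* in the window. *Kcnh6*, a potassium channel subunit, had 7 to 17 counts in the floxed line and 0 to 4 in the Cre line (edgeR adjusted p = 0.612 and 0.122). *Gna13*, a G protein subunit, was at 156 to 175 CPM in the floxed line and 127 to 149 CPM in the Cre line, with log2 differences of -0.23 and -0.30. *Dcaf7*, an adaptor of ubiquitin ligases next to *Kcnh6*, was at 137 to 158 CPM and 121 to 131 CPM. By the size of the smaller of both differences, *Cacng4* and *Sdk2* followed *Gm11642*, *Gm23849* and *Kcnh6*. The counts of *Cacng4* reached 0 in both lines and those of *Sdk2* in the Cre line only. The lines overlapped for both of these genes (edgeR adjusted p = 0.70 and 0.871 with PBS).

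Over the 12 libraries, the genes most like the members in log2 CPM were mostly on other chromosomes, and the difference between the lines is part of each of these correlations. For *C130046K22Rik* they were *Adi1* on chromosome 12 (Pearson's r = -0.98), *2610035D17Rik* (0.98) and *Cyp1b1* on chromosome 17 (0.98). For *2610035D17Rik* they were *Ide* on chromosome 19 (-0.99), *C130046K22Rik* and *Arl6ip5* on chromosome 6 (0.97). For *Abca5* they were *Arl6ip5* (-0.98), *Gpc1* on chromosome 1 (-0.98) and *Cyp1b1* (-0.97), and for *Arl4d* they were *Sbsn* on chromosome 7 (0.98), *2610035D17Rik* (0.97) and *Fam110c* on chromosome 12 (0.96). *Adi1* and *Fam110c* lie in the tile at 25 to 40 Mb of chromosome 12 that holds *Ahr*. As deviations from group means, *2610035D17Rik* correlated at -0.117 with *C130046K22Rik* and at 0.595 with *Arl4d*. *Abca5* correlated in the same way at 0.705 with *C130046K22Rik*, 0.197 with *Arl4d* and 0.112 with *2610035D17Rik*. For *C130046K22Rik* with *Arl4d* the value was -0.043. *C130046K22Rik* was at 0 counts throughout the Cre line, so its deviations there carry no information.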

How the data were processed

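AT2 cells of AhRfl/fl and Sftpc-Cre;AhRfl/fl mice were profiled in 12 libraries, 3 in each of 4 groups given by the labels. The authors aligned reads to GRCm38 with STAR 2.7.2b and counted genes with Salmon, and the deposited counts are whole and not normalized. How whole numbers were reached, and how strand was counted, is not given in the sources used here. The deposited FPKM was made by the authors from the counts and holds 0.0001 where the count is 0. The study names RefSeq for annotation, whereas all 55450 IDs matched GENCODE M21, which gave symbols and positions. The combined table equals the 12 single ones.

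Counts were filtered with filterByExpr (minimum count 10), normalized with TMM and fitted with edgeR 4.0.16 under R 4.3.3 as 4 group means over 12 libraries. The quasi-likelihood test was adjusted after Benjamini-Hochberg at 0.05 over all genes. Members, window and gene lists were chosen with earlier results of these data known. Named genes are the members, window genes called, the 5 window genes with the largest differences of one sign, the 3 genes most like each of the 4 members, neighbours, tested Abca genes and marker leaders. Alternatives were other size factors, no filter, DESeq2 1.42.0, limma-trend (limma 3.58.1) with adjustment and under the study's rule (unadjusted p below 0.05 and absolute log2 fold change above 0.5), log2(FPKM + 1), the 6 libraries compared, replicate blocks and leaving out each library. The script was tested on simulated data. With 3 libraries against 3 an exact permutation test cannot give a p below 0.1.

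Deviations from group means over 12997 genes correlated between PBS and CRE libraries of one number (0.746, 0.378 and 0.685 in floxed cells, 0.588, 0.526 and 0.377 in Cre cells). Between lines of one number they correlated at 0.470, 0.108 and 0.165 with PBS and at 0.412, -0.011 and 0.076 with CRE. The labels do not say whether libraries of one number share a cell preparation. Libraries of one number were paired only in the alternatives with replicate blocks. The main fit, with its standard errors and intervals, used no pairing.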

Additional observations from a re-analysis of the deposited data

How the results depend on the processing

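Between lines the calls over all genes, 31 with PBS and 35 with CRE, were 243 and 174 with DESeq2, 846 and 705 under the study's rule, and 71 and 55 with the replicate block. With only the 6 libraries compared there were 15 with PBS. For the response to CRE the calls, 48 in the floxed line and 54 in the Cre line, were 409 and 254 with DESeq2, 848 and 696 under the study's rule, 137 and 112 with the replicate block, and 748 and 439 with pairs within each line. With only the 6 libraries compared there were 13 in the Cre line. Window calls, 4 in each comparison, were 7 and 10 with DESeq2, 19 and 17 under the study's rule, 1 and 2 with only the 6 libraries compared (*Abca5* with PBS, *Abca5* and *C130046K22Rik* with CRE), and 4 and 4 with the replicate block. Without a filter on low counts the window held 3 calls in each comparison, *Arl4d* being lost. The cause of these shifts was not tested. Without 1 library the calls ran from 15 to 29 (lines with PBS), 21 to 35 (lines with CRE), 19 to 51 (CRE in the floxed line), 23 to 62 (CRE in the Cre line), and 3 to 4 in the window.

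On the log2(FPKM + 1) scale, which shrinks low values by its construction, the difference of *Abca5* was 1.03 with PBS and 0.91 with CRE, and that of *2610035D17Rik* -0.92 and -0.93. The lower bound of *C130046K22Rik* lay between 33.98 and 45.91 with PBS and between 38.37 and 40.57 with CRE over the libraries left out. The replicate block changed no call of a member for the response to CRE. The genotype difference of *Abca8b* with CRE ran from -0.50 to 0.30 and that of *Abca9* with CRE from -1.44 to 0.11, so neither direction holds. Window genes that do not overlap numbered 15 with both other scalings, an alternative chosen after seeing the data. Depth limits *Abca8a*, *Abca8b* and *Abca9*, whose counts were mostly under 100.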
